A study of Homo sapiens with 8 samples.

Results

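Genes of homologous recombination and of the Fanconi anemia pathway were followed through 8 RNA-seq libraries of 4 human thyroid cancer cell lines. The members were 39 genes taken by symbol, from the sensors of a DNA break to the FANCD2-FANCI step, and each was found under 1 Ensembl identifier in all 4 deposited tables, among 58884 gene identifiers. The list also holds the checkpoint kinases ATM, ATR and CHEK1, which are not confined to recombination. The study changed NR1D1, which encodes the clock repressor REV-ERB alpha. 8505C and CAL-62 are anaplastic carcinoma lines, and each gave 1 library after a control siRNA (genotype WT in the labels) and 1 after an NR1D1 siRNA (NR1D1 knockdown). TPC-1 is a papillary and FTC-133 a follicular carcinoma line, and each gave 1 library with an empty vector (WT) and 1 with an NR1D1 vector (NR1D1 overexpression). With 1 library in each of the 8 groups, a difference between treated and control cells of a line has no replicate check. Each approach was used in its own pair of lines, so approach and line cannot be told apart. The sources used here do not say which siRNA sequence was used, what drives the vector or when cells were harvested.

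Homologous recombination mends a double-strand break by copying from an intact, usually sister, DNA molecule. The MRE11-RAD50-NBN complex and ATM sense the break, nucleases cut back one strand, BRCA1, PALB2 and BRCA2 ready the bared strand for pairing, and helicases take the joined molecules apart. The Fanconi pathway acts where the strands are crosslinked: a core complex with the E2 enzyme UBE2T puts ubiquitin on FANCD2 and FANCI, and the crosslink is then cut out and handed to recombination. Many of these genes are expressed most in dividing cells, and E2F factors and the cell-cycle complexes that read CHR elements and CCAAT boxes are known regulators of genes of this kind.

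Promoters of 6 members are shown because these genes had the 5 highest treated-over-control ratios in 8505C (XRCC3, FANCD2, FANCG, UBE2T and FANCA) and the lowest (ATR). The windows run from 250 bases before to 50 bases after the start given by RefSeq on GRCh38.p14. They are chr3:10026187-10026486 on the plus strand for FANCD2 and, on the minus strand, chr14:103715402-103715701 for XRCC3, chr9:35079893-35080192 for FANCG, chr1:202341887-202342186 for UBE2T, chr16:89816598-89816897 for FANCA and chr3:142578684-142578983 for ATR. Capitals mark an E2F-type motif (TTTGGCGC, TTTCCCGC, TTTCGCGC or TTTGCCGC, either strand), a CHR-type motif (TTTGAA or TTCGAA, either strand) or a CCAAT box (CCAAT, either strand).
XRCC3: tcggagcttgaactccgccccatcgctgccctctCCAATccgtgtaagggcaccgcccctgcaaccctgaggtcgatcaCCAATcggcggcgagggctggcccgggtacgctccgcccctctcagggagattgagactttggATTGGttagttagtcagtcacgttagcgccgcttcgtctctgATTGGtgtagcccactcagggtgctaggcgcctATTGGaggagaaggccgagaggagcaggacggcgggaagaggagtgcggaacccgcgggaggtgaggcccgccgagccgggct
FANCD2: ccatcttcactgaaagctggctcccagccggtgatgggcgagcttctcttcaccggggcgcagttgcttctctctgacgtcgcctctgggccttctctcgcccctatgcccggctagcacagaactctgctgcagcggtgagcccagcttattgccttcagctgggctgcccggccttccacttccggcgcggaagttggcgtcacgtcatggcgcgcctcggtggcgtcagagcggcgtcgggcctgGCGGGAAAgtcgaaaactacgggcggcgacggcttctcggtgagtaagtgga
FANCG: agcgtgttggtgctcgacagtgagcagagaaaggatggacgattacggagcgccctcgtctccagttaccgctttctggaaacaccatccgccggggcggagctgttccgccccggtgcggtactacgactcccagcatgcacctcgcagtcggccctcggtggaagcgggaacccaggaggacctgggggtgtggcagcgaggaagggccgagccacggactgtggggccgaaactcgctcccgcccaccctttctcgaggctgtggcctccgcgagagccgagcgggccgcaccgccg
UBE2T: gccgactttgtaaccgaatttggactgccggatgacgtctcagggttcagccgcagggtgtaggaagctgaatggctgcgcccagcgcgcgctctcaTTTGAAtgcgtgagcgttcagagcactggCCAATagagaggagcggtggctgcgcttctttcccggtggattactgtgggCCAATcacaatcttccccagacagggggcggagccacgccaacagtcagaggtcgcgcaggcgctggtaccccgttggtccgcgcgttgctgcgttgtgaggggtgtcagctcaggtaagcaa
FANCA: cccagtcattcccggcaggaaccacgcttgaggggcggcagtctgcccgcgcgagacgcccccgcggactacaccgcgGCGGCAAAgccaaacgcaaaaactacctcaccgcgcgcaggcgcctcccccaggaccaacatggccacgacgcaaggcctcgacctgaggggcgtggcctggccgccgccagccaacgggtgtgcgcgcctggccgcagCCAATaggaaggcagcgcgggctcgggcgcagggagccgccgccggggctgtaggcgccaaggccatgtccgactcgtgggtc
ATR: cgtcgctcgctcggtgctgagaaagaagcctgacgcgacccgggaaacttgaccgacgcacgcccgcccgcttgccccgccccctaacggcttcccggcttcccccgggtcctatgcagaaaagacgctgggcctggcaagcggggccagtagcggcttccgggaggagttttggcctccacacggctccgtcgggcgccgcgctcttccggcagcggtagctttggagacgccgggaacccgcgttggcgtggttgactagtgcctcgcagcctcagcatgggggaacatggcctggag
The XRCC3 window held 5 CCAAT boxes, the FANCD2 window 1 E2F-type match, the UBE2T window 1 CHR-type match and 2 CCAAT boxes, the FANCA window 1 match of E2F type and 1 CCAAT box, and the FANCG and ATR windows none of these letters. Windows with and without a match were thus both among the genes with the highest ratios. RefSeq windows were matched for 33 of the 39 genes, 46 windows in all. The windows of WRN, FANCI, RMI2, DNA2, NBN and RAD54B were not used here.

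An E2F-type motif stood in 13.0% of the 46 member windows and in 3.3% of all 35116 promoter windows of the same length. It was found in EXO1, FANCA, FANCC, FANCD2, RMI1 and XRCC2. CCAAT boxes stood in 41.3% of member windows and 34.6% of all windows, and CHR-type motifs in 8.7% and 16.4%. The hexamer AGGTCA of nuclear receptors, searched on both strands, stood in 10.9% of member windows and 13.8% of all windows. The longer form TAGGTCA, which contains that hexamer and resembles the element bound by REV-ERB alpha, stood in 2 of 46 member windows (4.3%), both of RAD54L, and in 1.8% of all windows. Some genes gave several overlapping windows, and a match is a string of letters, not a measured binding site.

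Values are TPM, reads per gene length as a share of the library, every column having been scaled to a sum of 1000000. Recovered depths ran from 12.86 to 23.18, in units of 1e6 reads, and the 312 member values rested on 9 to 4520 reads, 53 of them on fewer than 100. NR1D1 itself was 18.2 TPM in 8505C control cells and 11.2 after the siRNA, 21.97 and 10.1 in CAL-62, 190.0 and 209 in TPC-1, and 105 and 137 in FTC-133. The vector lines thus differed from their controls in NR1D1 by ratios of 1.10 (95% counting interval 1.05 to 1.15) and 1.30 (1.21 to 1.40). Such intervals are exact binomial ones on recovered reads and cover counting error only. Recovered reads were whole in all libraries for 24 of the 39 members and approximate for the other 15. Genes of the mitochondrial genome took 57.2% and 67.8% of the CAL-62 columns and 15.7% to 29.3% of the others, so every nuclear gene of CAL-62 reads lower on this scale, the more so after the siRNA. The keratins KRT8 and KRT18 were present in all 8 libraries, but other epithelial markers differed between lines. EPCAM was 193.7 and 323.78 TPM in CAL-62, at most 1.84 in 8505C and FTC-133, and listed at 0 in TPC-1. CDH1 was 5.68 and 9.69 TPM in CAL-62 and at most 0.48 elsewhere. KRT19 was 119.48 and 111.62 TPM in CAL-62 and at most 8.53 elsewhere. TG and SLC5A5, which mark differentiated thyrocytes, were at 0.69 TPM or less everywhere. PAX8 was 0.50 in both 8505C libraries and ran from 53.75 to 330.14 TPM in the other lines. NKX2-1 was listed at 0 in CAL-62 and TPC-1. It was 63.38 TPM in 8505C control cells and 100.33 after the siRNA, and at least 14.16 in both FTC-133 libraries. HHEX was at least 6.45 TPM in all 8 libraries.

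Positions are those of GENCODE 29 on GRCh38, and identifiers those of the files. ATR (ENSG00000175054) spans chr3:142449235-142578826 and RBBP8 (ENSG00000101773) chr18:22798261-23026488. FANCD2 (ENSG00000144554) spans chr3:10026414-10101930, UBE2T (ENSG00000077152) chr1:202331657-202341980 and FANCA (ENSG00000187741) chr16:89737549-89816657. XRCC3 (ENSG00000126215) spans chr14:103697609-103715504 and RAD50 (ENSG00000113522) chr5:132556019-132646344. Values are given per gene and do not separate transcripts.

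At control level the 39 genes were expressed in every line, from a median of 6.63 TPM in 8505C and 7.04 in FTC-133 to 10.85 in CAL-62 and 13.7 in TPC-1. The E2 enzyme UBE2T and the break sensor NBN had the highest means over the 4 controls, and RAD50 the lowest. On the TPM scale the TPC-1 control was the highest of the 4 controls for 18 members, and the FTC-133 control was the lowest for 18. The matching shares of all genes are not given here. The highest control stood 1.26-fold (WRN) to 12.7-fold (RAD52) above the lowest, with a median of 3.30-fold, beside 3.75-fold over all genes with a mean of at least 1 TPM and a value above 0 in every control. Unless said otherwise, ranks and ranges between lines, here and below, are on the TPM scale, on which CAL-62 reads lower.

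**Figure D1:**
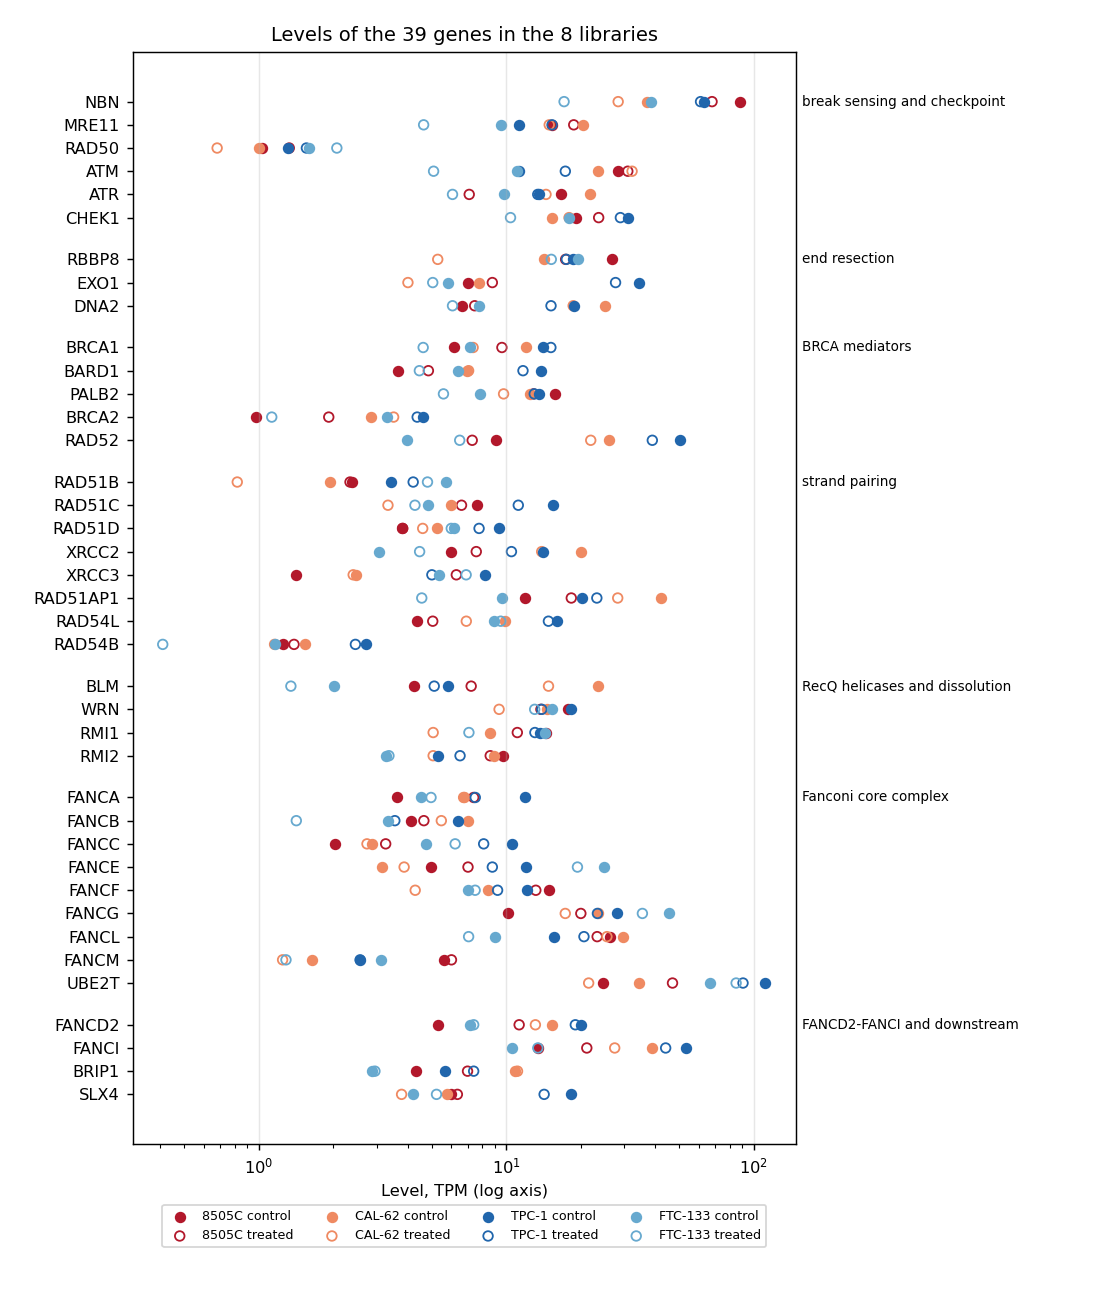
Level of each of the 39 genes in the 8 libraries, in TPM on a log axis, by repair step. Filled points are control libraries and open points treated ones, 1 library per point. RAD52 spreads 12.7-fold over the controls and WRN 1.26-fold, and RAD50 and RAD54B lie near 1 TPM.

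Differences in level between the lines, taken over both libraries of each line, passed for 18 of the 39 members (limma F test, Benjamini-Hochberg adjusted p under 0.05), 46.2% of them, beside 61.0% of all 17595 genes tested. RAD52 (adjusted p = 0.00338), FANCE (0.00654), EXO1 (0.00903), DNA2 (0.0116), BLM (0.0129) and FANCI (0.0151) had the smallest values. The spread in this test is how far the lines disagree in their response, not the spread of repeat cultures. Leaving out 8505C, CAL-62, TPC-1 or FTC-133 left 0 members called in each case, with 0 of all genes called but for 8.1% without TPC-1. Testing without a filter on low genes left 2 members (5.1%), beside 10.4% of all genes. Which share was larger depended on the setting: without mitochondrial genes it was 28 members (71.8%) beside 53.8% of all genes, and with protein-coding genes only 30 (76.9%) beside 78.4%.

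Both TPC-1 libraries stood above all 6 others for 16 members, among them EXO1, BARD1, RAD52, FANCC, UBE2T and SLX4, beside 21.6% of all genes, and below them for 0 members, beside 5.38%. Both FTC-133 libraries stood below the others for 12 members, among them MRE11, ATM, PALB2, BLM and BRIP1, beside 13.4% of all genes, and above them for RAD50, RAD51B, FANCE and FANCG, beside 14.5%. Both CAL-62 libraries were on top for RAD51AP1, BLM and BRIP1, beside 8.5% of all genes, and at the bottom for RAD50, RBBP8, RAD51B and FANCE, beside 28.6%. Both 8505C libraries were on top for NBN, FANCF and FANCM, beside 11.0%, and at the bottom for RAD51D and RAD54L, beside 4.02%. Without the mitochondrial genes in the scale, CAL-62 was on top for 21 members (27.0% of all genes) and at the bottom for 0 (7.82%). TPC-1 was then on top for 4 (11.9%), and FTC-133 at the bottom for 20 (22.4%). The order of TPC-1 and CAL-62 therefore rests on the scale, while FTC-133 was the low line for many members on both.

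Whether the NR1D1 siRNA or vector shifted these genes was asked across the lines, and no member passed a joint test. For the siRNA, the vector, all 4 lines in 1 contrast (the library labelled to hold more NR1D1 against the other) and the difference between approaches, limma called 0 of 39 members, beside 0.0% of all 17595 genes in each. At an unadjusted p under 0.05 the counts were 2, 1, 0 and 2 of 39 members, and 2114, 784, 720 and 1653 of all genes. RBBP8 and ATR had the smallest p for the siRNA, with log2 effects of -0.93 (SE 0.30, limma adjusted p = 0.332) and -0.84 (SE 0.31, adjusted p = 0.373), both lower in 2 of 2 lines. FANCB had the smallest for the vector, at -0.77 (SE 0.31, limma adjusted p = 1), lower in 2 of 2 lines. The siRNA effects of RBBP8 and ATR, oriented by NR1D1, differed from the vector effects by 1.14 and 1.15, neither past the threshold (limma adjusted p = 0.50 and 0.504).

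Within a line, all genes are those with a mean of at least 1 TPM over its libraries (16499 in 8505C, 16230 in CAL-62, 16175 in TPC-1 and 16501 in FTC-133). Ratios are log2((treated TPM + 1) / (control TPM + 1)), which understates the change of low genes, and they carry no test. In 8505C, 27 of 39 members were higher after the siRNA, beside 52.9% of all genes, with a median of 0.18 beside 0.05 for all genes. By a fold of at least 1.5, 9 members (23.1%) were higher, a share near the 23.7% of all genes, and 2 (5.1%) were lower, beside 15.0%. In CAL-62, 6 of 38 were higher, beside 32.6%, with a median of -0.42 beside -0.28, and at 1.5-fold 0 were higher, beside 11.4%, and 11 lower, beside 29.0%. With the vector in TPC-1, 9 of 39 were higher, beside 46.8%, with a median of -0.11 beside -0.02, and at 1.5-fold 0 were higher, beside 13.5%, and 3 lower, beside 13.2%. In FTC-133, 14 of 38 were higher, beside 54.8%, with a median of -0.26 beside 0.05, and at 1.5-fold 1 was higher, beside 19.4%, and 10 lower, beside 14.8%. RAD50 in CAL-62 and RAD54B in FTC-133 had a mean under 1 TPM in the line and are left out of these counts.

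The CAL-62 figures depend on the scale. With median-ratio scaling the CAL-62 median over all genes went from -0.28 to 0.10 and that of the members to 0.00, with 19 of 38 higher, and without mitochondrial genes to 0.08 and -0.03, with 17 higher. The members stayed under the all-gene median by 0.10 to 0.14 on each scale tried. In the other 3 lines no scale turned the members' median, but in TPC-1 it was -0.05, with 12 of 39 higher, both on the deposited columns and with median-ratio scaling. Of single members in CAL-62, 13 changed sign with median-ratio scaling and 11 without mitochondrial genes. NBN, PALB2, RAD52, FANCB, FANCL and FANCD2, whose counting intervals lay below 1, were then slightly higher after the siRNA, so a lower value in CAL-62 given below for these genes, or for XRCC3, RAD51D, FANCA, FANCC or FANCM, holds for the TPM scale only. DNA2 and RAD54B turned with median-ratio scaling alone, DNA2 to 0.00. In FTC-133, BRIP1, FANCD2 and RMI2, in TPC-1, ATR, NBN and FANCM, and in 8505C, RAD51D, changed sign with median-ratio scaling from ratios within 0.04 of 0. In bulk RNA, a smaller share of dividing cells and less RNA of these genes per cell cannot be told apart.

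**Figure D2:**
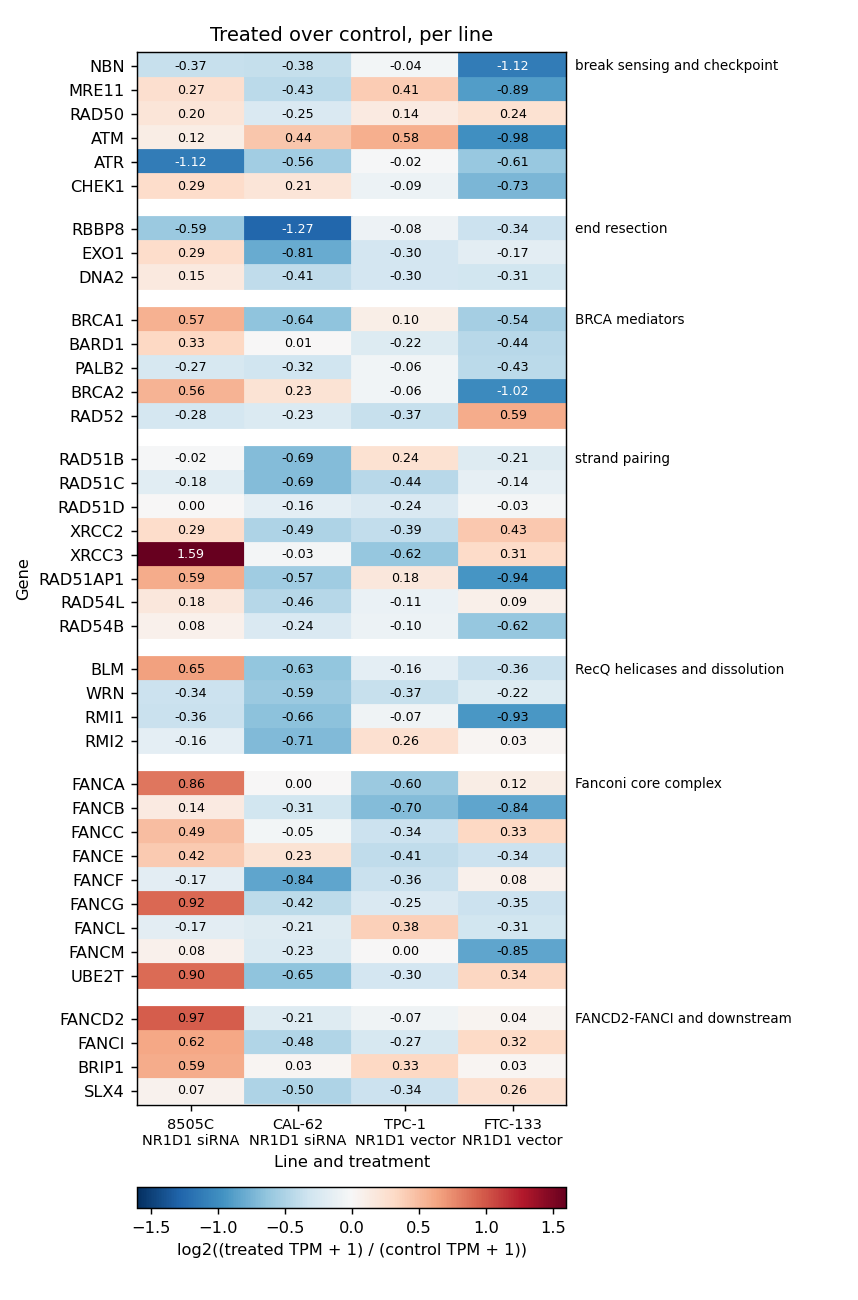
Treated-over-control log2 ratio of each member in each line, in TPM with 1 added, by repair step; red is higher and blue lower in the treated library. The 8505C column runs from -1.12 (ATR) to 1.59 (XRCC3), the CAL-62 column from -1.27 (RBBP8) to 0.44 (ATM), and the FTC-133 column is bluest among the break sensors.

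The 4 lines did not share an order of response. Across the 39 members, Pearson's r between the ratios of 2 lines was 0.36 for 8505C and CAL-62, -0.40 for TPC-1 and FTC-133, 0.26 for 8505C and FTC-133, and between -0.21 and 0.07 for the remaining pairs. These are correlations across genes, which are not independent replicates. Treated cells were higher than control in all 4 lines for BRIP1. They were lower in all 4 for NBN, ATR, RBBP8, PALB2, RAD51C, WRN and RMI1. Of these, RBBP8, RAD51C, WRN and RMI1 kept all 4 signs on the other scales, but WRN alone had counting intervals below 1 in all 4 lines. The TPC-1 intervals of RBBP8 (0.833 to 1.06) and RMI1 (0.803 to 1.13) included 1. So did those of RAD51C in 8505C (0.708 to 1.06) and FTC-133 (0.679 to 1.16). Oriented by NR1D1, CHEK1, BARD1, BRCA2 and FANCE were lower and RMI2 higher in all 4 libraries labelled with more NR1D1. None of these genes had counting intervals that excluded 1 in all 4 lines. The interval included 1 in TPC-1 for CHEK1 and BRCA2, and in CAL-62 for BARD1 and FANCE. For RMI2 it included 1 in every line but CAL-62. The FTC-133 ratios of BRIP1 and RMI2 were 0.03 each and turned with median-ratio scaling. The share of all genes with the same sign in all 4 lines is not given here, so these lists are description only. No member differed by at least 0.3 on the log2 scale in 1 oriented direction in all 4 lines.

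Among the genes that sense a break and signal it, 5 of 6 had their lowest value in FTC-133 cells with the NR1D1 vector, RAD50 being the exception. The share of all genes with their lowest value in that library is not given here. Both FTC-133 libraries stood below the others for 12 of the 39 members, beside 13.4% of all genes. NBN, the subunit that ties the sensor complex to ATM, was 87.98 TPM in 8505C control cells and 67.8 after the siRNA, 37.04 and 28.3 in CAL-62, 62.7 and 60.95 in TPC-1, and 38.5 and 17.1 in FTC-133. It was the highest member in 8505C, and the FTC-133 library with the NR1D1 vector was the lowest of the 8, at a ratio of 0.445 (95% counting interval 0.397 to 0.499) to its control. MRE11, the nuclease of the complex, was 15.4 TPM in 8505C control cells and 18.7 after the siRNA, 20.5 and 14.9 in CAL-62, 11.3 and 15.3 in TPC-1, and 9.49 and 4.64 in FTC-133. It was higher in treated cells of 8505C and TPC-1 and lower in those of CAL-62 and FTC-133, where its ratio was 0.489 (95% counting interval 0.40 to 0.597). ATM, the kinase that the complex activates, was 28.3 TPM in 8505C control cells and 30.98 after the siRNA, 23.5 and 32.2 in CAL-62, 11.3 and 17.3 in TPC-1, and 11.02 and 5.09 in FTC-133. Treated cells had more ATM in 8505C, CAL-62 and TPC-1, by ratios of up to 1.54 (95% counting interval 1.44 to 1.64) in TPC-1, and less in FTC-133 at 0.462 (95% counting interval 0.415 to 0.513).

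RAD50, the ATPase of the same complex, was 1.03 TPM in 8505C control cells and 1.33 after the siRNA, 1.0 and 0.68 in CAL-62, 1.32 and 1.56 in TPC-1, and 1.6 and 2.07 in FTC-133. No other member had so low a mean level, and all 4 of its treated-over-control intervals included 1. In GENCODE 29, 79.7% of its exon bases also belong to a read-through gene on the same strand, AC116366.3, which was listed at or near 0 in these libraries. The sources used here do not say how reads in shared exons were counted, so the RAD50 value may not measure all of its RNA.

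ATR, the kinase that answers single-stranded DNA, was 16.6 TPM in 8505C control cells and 7.09 after the siRNA, 21.8 and 14.5 in CAL-62, 13.6 and 13.4 in TPC-1, and 9.78 and 6.07 in FTC-133. Its 8505C ratio of 0.427 (95% counting interval 0.38 to 0.478) was the lowest of any member in that line, it was also lower in CAL-62 and FTC-133, and in TPC-1 it was nearly level, at 0.984 (95% counting interval 0.90 to 1.08). Its promoter window held none of the motifs searched. CHEK1, the kinase that ATR switches on, had log2 ratios, line by line as before, of 0.29, 0.21, -0.09 and -0.73, with the signs of ATR in the vector lines and the opposite signs in the siRNA lines.

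At end resection, RBBP8 (also called CtIP), which starts the cut with MRE11, was 26.7 TPM in 8505C control cells and 17.4 after the siRNA, 14.2 and 5.29 in CAL-62, 18.6 and 17.5 in TPC-1, and 19.5 and 15.2 in FTC-133. It was lower in the treated library of every line, with the lowest ratio in CAL-62, at 0.374 (95% counting interval 0.311 to 0.448), where the median of all genes was also below 0. In 8505C the ratio was 0.65 (95% counting interval 0.574 to 0.736). EXO1, the exonuclease that lengthens the single strand, was 7.0 TPM in 8505C control cells and 8.79 after the siRNA, 7.77 and 4.01 in CAL-62, 34.3 and 27.6 in TPC-1, and 5.81 and 5.05 in FTC-133. On the TPM scale, where CAL-62 reads lower, both TPC-1 libraries held over 3 times as much EXO1 as any other. Without mitochondrial genes they were still above all others, but the fold of 3 is for the TPM scale only. The CAL-62 ratio was 0.516 (95% counting interval 0.403 to 0.657). DNA2, the other long-range nuclease, was highest in the CAL-62 control, with log2 ratios of 0.15, -0.41, -0.30 and -0.31.

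The BRCA mediators were low to moderate in level. BRCA1, the ubiquitin ligase that licenses resection and brings in PALB2, was 6.15 TPM in 8505C control cells and 9.61 after the siRNA, 12.04 and 7.35 in CAL-62, 14.1 and 15.2 in TPC-1, and 7.15 and 4.62 in FTC-133. It was higher after the siRNA in 8505C, at 1.56 (95% counting interval 1.34 to 1.83), and lower in CAL-62, at 0.61 (95% counting interval 0.54 to 0.689). Its partner BARD1 had log2 ratios of 0.33, 0.01, -0.22 and -0.44, so that the pair did not differ alike in CAL-62. BRCA2, the mediator that PALB2 brings to the break, was 0.98 TPM in 8505C control cells and 1.92 after the siRNA, 2.84 and 3.51 in CAL-62, 4.6 and 4.37 in TPC-1, and 3.31 and 1.13 in FTC-133. The 8505C control and the FTC-133 library with the vector were lowest, on 52 and 57 reads, and the ratios there were 1.95 (95% counting interval 1.4 to 2.76) and 0.341 (95% counting interval 0.248 to 0.462).

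In the 4-line comparison BRCA2 had an effect of -0.47 (limma adjusted p = 0.938), and it did not pass. PALB2, the bridge between BRCA1 and BRCA2, had log2 ratios of -0.27, -0.32, -0.06 and -0.43. RAD52, an annealing protein that can stand in for BRCA2, was 9.07 TPM in 8505C control cells and 7.29 after the siRNA, 25.9 and 21.9 in CAL-62, 50.4 and 38.9 in TPC-1, and 3.97 and 6.49 in FTC-133. On the TPM scale it spread further between the control libraries than any other member. TPC-1 was highest on that scale, CAL-62 next, and 8505C and FTC-133 were low. CAL-62 reads lower on that scale, and without mitochondrial genes the TPC-1 libraries no longer both stood above all others for RAD52. The FTC-133 libraries differed in the opposite sense to the other lines, at 1.64 (95% counting interval 1.21 to 2.23). BRCA1 has a pseudogene copy, and the sources used here do not say how reads matching both were counted.

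RAD51B, RAD51C, RAD51D, XRCC2 and XRCC3 are related proteins that work in complexes at the pairing step. XRCC2, of the RAD51B-RAD51C-RAD51D-XRCC2 complex, was 5.99 TPM in 8505C control cells and 7.57 after the siRNA, 19.97 and 13.9 in CAL-62, 14.04 and 10.5 in TPC-1, and 3.06 and 4.47 in FTC-133. The CAL-62 control was the highest library and the FTC-133 control the lowest, and treated cells had more of it in 8505C and FTC-133 and less in CAL-62 and TPC-1. RAD51B, RAD51C and RAD51D had log2 ratios in CAL-62 of -0.69, -0.69 and -0.16, and between -0.44 and 0.24 in the remaining lines. XRCC3, the partner of RAD51C in a second complex, was 1.42 TPM in 8505C control cells and 6.29 after the siRNA, 2.48 and 2.41 in CAL-62, 8.24 and 5.01 in TPC-1, and 5.35 and 6.89 in FTC-133. The 8505C ratio of 4.43 (95% counting interval 3.22 to 6.22) was the largest of any member in any line and rested on 46 reads in the control library.

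That XRCC3 value cannot be assigned to XRCC3 alone. Of its exon bases, 76.7% lie under exons of KLC1, a kinesin light chain gene on the opposite strand, and the sources used here do not say whether counting used strand. KLC1 itself was 4.38 TPM in 8505C control cells and 7.03 after the siRNA.

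Among the factors that act on the invading strand, RAD51AP1, which strengthens pairing, was 11.9 TPM in 8505C control cells and 18.3 after the siRNA, 42.2 and 28.2 in CAL-62, 20.3 and 23.2 in TPC-1, and 9.66 and 4.56 in FTC-133. It was highest in both CAL-62 libraries and lowest in FTC-133 with the vector, at a ratio of 0.472 (95% counting interval 0.328 to 0.669). RAD54L, a DNA motor of the pairing step, had log2 ratios of 0.18, -0.46, -0.11 and 0.09, all within 0.46 of 0. Its relative RAD54B was 1.26 TPM in 8505C control cells and 1.39 after the siRNA, 1.54 and 1.16 in CAL-62, 2.72 and 2.46 in TPC-1, and 1.17 and 0.41 in FTC-133. The FTC-133 library with the vector rested on 9 reads, and 59.1% of the RAD54B exon bases also belong to FSBP on the same strand.

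The helicases BLM and WRN and the partners of BLM, RMI1 and RMI2, were lower in CAL-62 after the siRNA, at log2 ratios of -0.71 to -0.59. WRN, the helicase lost in Werner syndrome, was 17.8 TPM in 8505C control cells and 13.8 after the siRNA, 14.6 and 9.36 in CAL-62, 18.3 and 13.9 in TPC-1, and 15.3 and 13.03 in FTC-133. On the TPM scale, where CAL-62 reads lower, the WRN controls were the most even of all members. Its treated libraries were lower in all 4 lines. BLM, the helicase that with RMI1 and RMI2 dissolves crossed strands, was 23.5 TPM in the CAL-62 control and 2.01 to 5.84 in the others. Its log2 ratios were 0.65, -0.63, -0.16 and -0.36. RMI2 was 9.75 TPM in 8505C control cells and 8.62 after the siRNA, 8.91 and 5.07 in CAL-62, 5.29 and 6.51 in TPC-1, and 3.26 and 3.36 in FTC-133. Its FTC-133 libraries were the lowest and nearly level, while RMI1 was lower there, with log2 ratios of -0.36, -0.66, -0.07 and -0.93.

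In the Fanconi core complex and its E2 enzyme, 7 of 9 members were higher after the siRNA in 8505C. In CAL-62 and in TPC-1, 8 of 9 were lower, counting FANCA in CAL-62 and FANCM in TPC-1, whose libraries were level. Of all genes, 52.9% were higher in 8505C, 32.6% in CAL-62 and 46.8% in TPC-1. On both other scales FANCF, UBE2T and FANCG alone were lower in CAL-62, FANCG by at most 0.03. UBE2T, the E2 enzyme that carries ubiquitin to FANCD2, was 24.7 TPM in 8505C control cells and 46.96 after the siRNA, 34.5 and 21.5 in CAL-62, 111 and 90.5 in TPC-1, and 66.7 and 84.8 in FTC-133. TPC-1 and FTC-133 held more than 8505C and CAL-62 in all libraries, and the 8505C ratio was 1.9 (95% counting interval 1.59 to 2.29) while that of CAL-62 was 0.625 (95% counting interval 0.526 to 0.74). FANCA, the subunit most often mutated in Fanconi anemia, was 3.62 TPM in 8505C control cells and 7.39 after the siRNA, 6.73 and 6.73 in CAL-62, 11.9 and 7.5 in TPC-1, and 4.51 and 4.97 in FTC-133. It was higher after the siRNA in 8505C, at 2.04 (95% counting interval 1.69 to 2.48), level in CAL-62, and lower with the vector in TPC-1, at 0.63 (95% counting interval 0.557 to 0.712), and 23.6% of its exon bases lie under ZNF276 on the opposite strand.

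FANCG, which binds FANCA, was 10.1 TPM in 8505C control cells and 20.02 after the siRNA, 23.5 and 17.3 in CAL-62, 28.1 and 23.4 in TPC-1, and 45.6 and 35.5 in FTC-133. It was higher after the siRNA in 8505C alone, at 1.98 (95% counting interval 1.64 to 2.4). FTC-133 held the most FANCG on the TPM scale, but without mitochondrial genes its libraries no longer both stood above all others. FANCL, the ubiquitin ligase of the complex, was 26.3 TPM in 8505C control cells and 23.3 after the siRNA, 29.7 and 25.5 in CAL-62, 15.6 and 20.6 in TPC-1, and 9.0 and 7.05 in FTC-133. Treated cells had more in TPC-1 alone, at 1.33 (95% counting interval 1.11 to 1.59). FANCB, a partner of FANCL encoded on the X chromosome, was 4.13 TPM in 8505C control cells and 4.65 after the siRNA, 7.01 and 5.47 in CAL-62, 6.41 and 3.55 in TPC-1, and 3.34 and 1.42 in FTC-133. Both vector lines were lower with NR1D1, at 0.555 (95% counting interval 0.413 to 0.741) in TPC-1 and 0.425 (95% counting interval 0.243 to 0.718) in FTC-133, the second on 21 reads.

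FANCE, which contacts FANCD2, was 4.99 TPM in 8505C control cells and 7.01 after the siRNA, 3.15 and 3.87 in CAL-62, 12.03 and 8.79 in TPC-1, and 24.9 and 19.4 in FTC-133. It was highest in FTC-133 and, on the TPM scale only, lowest in both CAL-62 libraries. It was higher after the siRNA in both siRNA lines and lower with the vector in both vector lines. The CAL-62 ratio rested on 61 reads in each library, with a counting interval of 0.847 to 1.78. In 8505C the interval was 1.0 to 1.98. Its 4-line effect of -0.35 did not pass (limma adjusted p = 0.938). FANCF, the adaptor beside it, was 14.9 TPM in 8505C control cells and 13.2 after the siRNA, 8.44 and 4.29 in CAL-62, 12.1 and 9.23 in TPC-1, and 7.04 and 7.49 in FTC-133. The CAL-62 ratio was 0.508 (95% counting interval 0.382 to 0.669), with the remaining lines between -0.36 and 0.08 on the log2 scale.

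FANCM, the translocase that anchors the complex to DNA, was 5.63 TPM in 8505C control cells and 6.01 after the siRNA, 1.64 and 1.25 in CAL-62, 2.57 and 2.57 in TPC-1, and 3.13 and 1.29 in FTC-133. It was highest in 8505C and equal in the TPC-1 libraries. On the TPM scale it was lowest with the siRNA in CAL-62 and the vector in FTC-133, where its ratio was 0.412 (95% counting interval 0.285 to 0.586). FANCC, the remaining subunit, had log2 ratios of 0.49, -0.05, -0.34 and 0.33 and was highest in TPC-1.

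At the FANCD2-FANCI step and after it, 4 of 4 members were higher in treated 8505C and FTC-133 cells, with medians of 0.60 and 0.15. Of all genes, 52.9% and 54.8% were higher there. FANCD2 and BRIP1 were nearly level in FTC-133, at 0.04 and 0.03, and turned with median-ratio scaling. The 8505C interval of SLX4 (0.884 to 1.27) included 1. In CAL-62 and TPC-1, 3 of 4 were lower, where 32.6% and 46.8% of all genes were higher. On the other scales FANCD2 was not lower in CAL-62. FANCD2, the clamp that is marked with ubiquitin, was 5.28 TPM in 8505C control cells and 11.3 after the siRNA, 15.3 and 13.1 in CAL-62, 20.1 and 19.02 in TPC-1, and 7.14 and 7.39 in FTC-133. The 8505C ratio was 2.14 (95% counting interval 1.8 to 2.54), and those of TPC-1 and FTC-133 had intervals that included 1. FANCI, its partner, was 13.4 TPM in 8505C control cells and 21.2 after the siRNA, 38.6 and 27.4 in CAL-62, 53.1 and 44.1 in TPC-1, and 10.6 and 13.4 in FTC-133. On the TPM scale FANCI followed FANCD2 in sign in all 4 lines, and the levels of both were highest in TPC-1. Its ratio was 1.57 (95% counting interval 1.4 to 1.77) in 8505C and 0.71 (95% counting interval 0.662 to 0.762) in CAL-62. On both other scales FANCI stayed lower in CAL-62 while FANCD2 did not, and FANCD2 alone of the pair turned in FTC-133 with median-ratio scaling. Without mitochondrial genes both CAL-62 libraries were on top for FANCD2 and FANCI. FANCD2 has pseudogene copies, so its reads may be split between them.

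BRIP1, the helicase that binds BRCA1, was 4.32 TPM in 8505C control cells and 6.98 after the siRNA, 10.85 and 11.1 in CAL-62, 5.68 and 7.39 in TPC-1, and 2.86 and 2.95 in FTC-133. CAL-62 held the most, and the treated library was higher in every line, though the CAL-62 and FTC-133 intervals included 1. SLX4, the scaffold for the nucleases that cut at the crosslink, had log2 ratios of 0.07, -0.50, -0.34 and 0.26 and was highest in TPC-1.

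Other repair lists, given as counts and medians, were placed beside the 39 genes. A list of 44 other recombination and crosslink genes had medians of 0.02, -0.51, -0.09 and 0.02, from 8505C through CAL-62 and TPC-1 to FTC-133, with 21 of 42, 8 of 42, 18 of 42 and 21 of 41 measured genes higher. Its largest mean ratios belonged to RNF8, a ubiquitin ligase at breaks, at -1.48, -1.62, -0.13 and 0.31. The median of 19 end-joining genes was -0.08, -0.57, -0.09 and -0.17 in the same order, and of 17 genes of the ATR pathway -0.07, -0.49, -0.09 and -0.13. Mismatch repair had medians of -0.07, -0.48, -0.04 and -0.14, nucleotide excision repair 0.02, -0.38, -0.19 and 0.27, base excision repair 0.20, -0.48, -0.05 and 0.10, and p53 targets 0.10, -0.43, -0.12 and 0.18. Low medians in CAL-62 were thus common to all 7 of these lists, as they were over all genes.

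Genes of the dividing cell were also higher after the siRNA in 8505C. The G1/S and DNA replication list of 38 genes had medians of 0.42, -0.50, -0.37 and 0.04, with 32, 3, 4 and 19 of 38 higher. The G2/M and mitosis list of 41 had medians of 1.12, -0.50, 0.02 and 0.00, with 38 of 40, 2 of 41, 21 of 41 and 20 of 40 higher. Both lists were thus above the all-gene median in 8505C, where FANCD2, FANCG, UBE2T and FANCA had their largest ratios. Their part in the member values was not tested. The summed level of 10 immune markers was 24.1 TPM in 8505C control cells and 87.9 after the siRNA, 1.3 and 12.4 in CAL-62, 0.7 and 1.0 in TPC-1, and 0.8 and 2.3 in FTC-133, most of it CD14 in the siRNA lines. Of 8 endothelial markers the sum was 51.5 and 148 TPM in 8505C, nearly all CDH5, 0.5 and 0.8 in CAL-62, 1.2 and 1.8 in TPC-1, and 2.0 and 7.6 in FTC-133. Both sums were thus higher in the treated library of every line, but some lay near the floor. In both TPC-1 libraries 0 markers of either list reached 1 TPM, and in CAL-62 0 endothelial markers did. The leukocyte marker PTPRC was at 0.06 TPM or less and MS4A1 and TYROBP were listed at 0 in all 8 libraries. Of 10 fibroblast markers the sum was 48.3 and 66.1 TPM in 8505C, 98.4 and 527 in CAL-62, 4.5 and 5.2 in TPC-1, and 3127 and 2478 in FTC-133. The part of these markers in the member values was not tested.

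**Figure D3:**
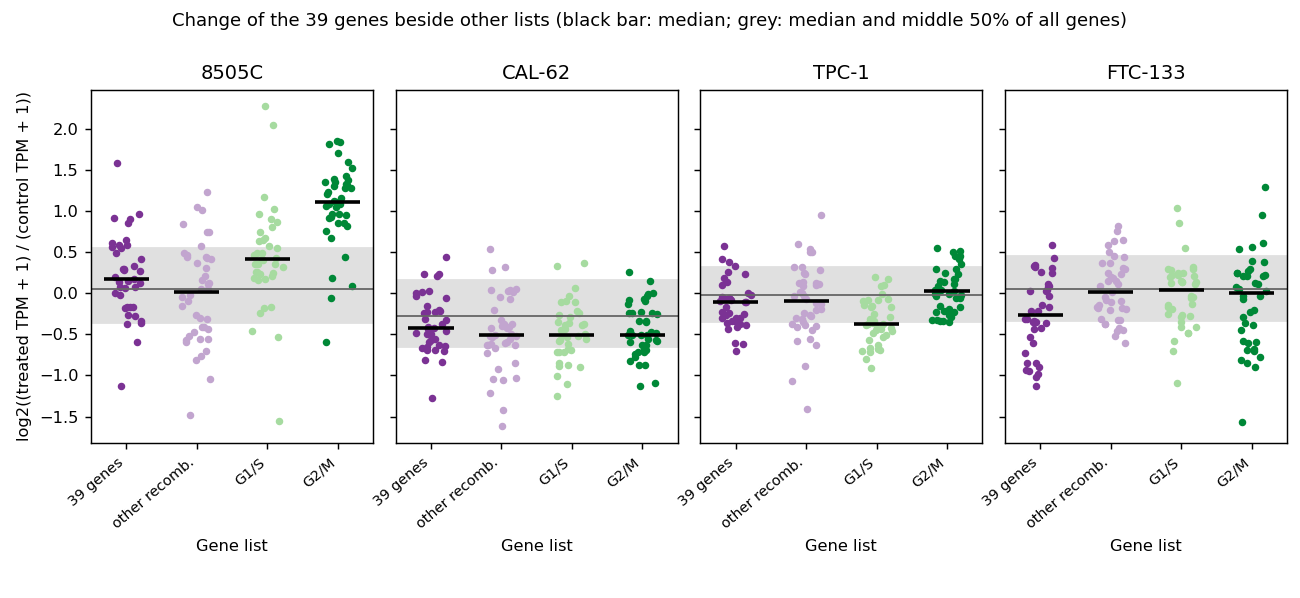
Treated-over-control log2 ratios of the 39 genes, the other recombination genes, the G1/S list and the G2/M list in each line, 1 point per measured gene, with black bars at list medians. The grey line and band are the median and middle 50% of all genes measured in the line; the G2/M median of 1.12 in 8505C lies above the band, and the members' median of 0.18 lies inside it.

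The ratios also varied with base composition. The transcripts of the members have a median GC content of 42.7% (36.3% to 59.6%), against 49.8% over coding genes. In FTC-133 the ratio went up with GC content, with a Spearman correlation of 0.65 over 38 members and 0.33 over 11945 coding genes. Of 16 members under 42% GC, a split chosen with the values seen, 14 were lower with the vector, at a median of -0.73, where coding genes of that range had -0.33. Of 22 members over 42% GC, 10 were lower, at a median of 0.04, where coding genes had 0.11. NBN, ATM, BRCA2, RAD51AP1, RMI1, MRE11, FANCM and FANCB, the 8 members with the lowest ratios in FTC-133, are all among the GC-poor ones. The Spearman correlation for members and coding genes was 0.22 and 0.43 in 8505C, -0.03 and 0.09 in CAL-62, and -0.38 and -0.09 in TPC-1. All points of a line share the same pair of libraries, and no p is given.

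Taking from each member the median of coding genes in the same one of 10 GC bins left medians of 0.32 in 8505C, -0.10 in CAL-62, -0.16 in TPC-1 and -0.08 in FTC-133. In FTC-133, NBN was then at -0.73, BRCA2 at -0.62, ATM at -0.59 and MRE11 at -0.50, while ATR was at -0.21 and RBBP8 at 0.06. In 8505C, FANCD2 was then at 1.15, UBE2T at 1.08, FANCA at 0.78, FANCG at 0.45 and ATR at -0.92. The part of GC content in the unadjusted ratios was not tested beyond this subtraction.

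**Figure D4:**
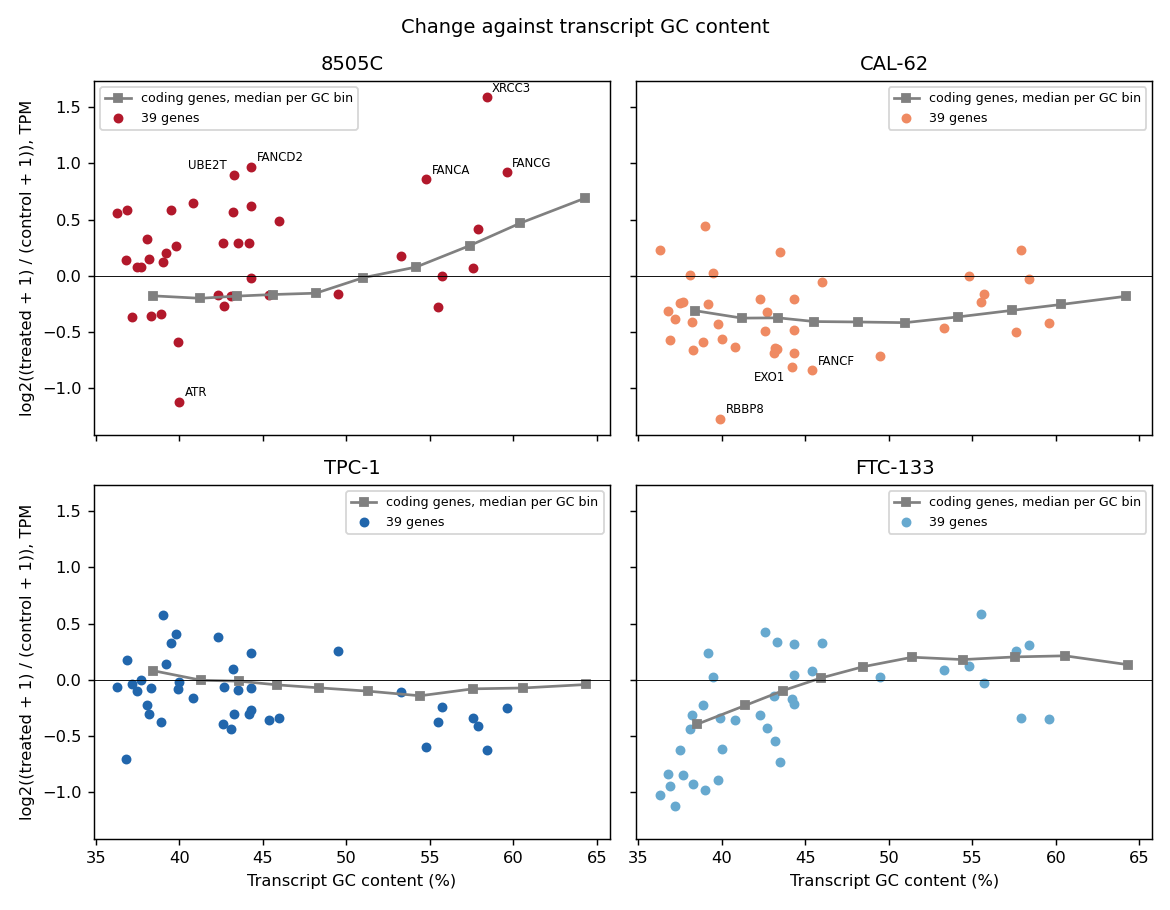
Treated-over-control log2 ratio (vertical) against the GC content of the transcripts in percent (horizontal) for the 39 genes in each line, with grey squares at the median of coding genes in each of 10 GC bins. In FTC-133 the GC-poor members lie at the bottom left, and the coding-gene medians go from -0.40 in the lowest bin to 0.14 in the highest; in 8505C they go from -0.18 to 0.69.

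The 3 members with most shared exon sequence, RAD50 (79.7%), XRCC3 (76.7%) and RAD54B (59.1%), were among the lowly expressed ones, at means over the 4 controls of 1.24, 4.38 and 1.68 TPM. RAD54L shared 25.1% of its exon bases with LRRC41, FANCL 18.7% with VRK2 and ATR 16.4% with the pseudogene AC109992.1, each on the opposite strand. FANCM, BRCA2 and RAD51B were also low, at means of 3.24, 2.93 and 3.36 TPM, with no shared exon bases. The part of shared sequence in these levels was not tested.

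**Figure D5:**
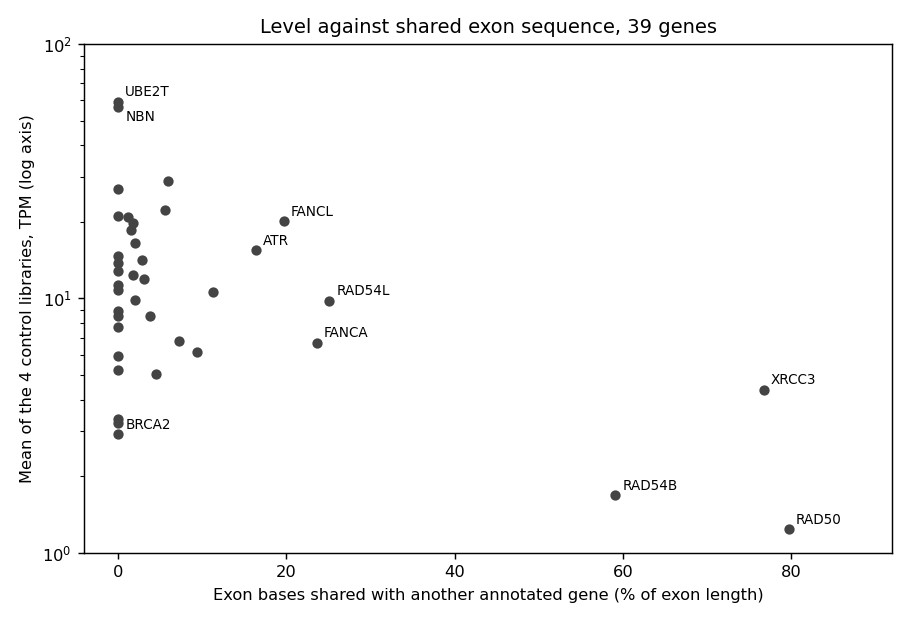
Mean level over the 4 control libraries in TPM (vertical, log axis) against the percent of exon bases shared with another gene in GENCODE 29 (horizontal), 1 point per member. RAD50 and RAD54B combine over 50% shared sequence with the 2 lowest levels, while UBE2T and NBN at the top share none.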

How the data were processed

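RNA-seq libraries of 4 thyroid cancer lines were read from 1 deposited table per line. Per the labels, RNA was extracted with Trizol and libraries followed a standard Illumina preparation. Trimmomatic 0.38, FastQC, MultiQC, featureCounts 2.0.0 and GRCh38 are named in the submitters' processing notes, while no aligner, annotation release or strand setting is given in the sources used here. The authors deposited TPM for 8505C and CAL-62, in columns summing to 1000000. The deposited columns of TPC-1 and FTC-133 bear the same name but were read as FPKM, because they summed to 253330.3, 261161.0, 261469.4 and 256453.4 and value times GENCODE 29 exon length summed to 1.001 to 1.005 times the total FPKM gives. All columns were scaled to a sum of 1000000, and symbols came from a table that named 58472 of the 58884 identifiers.

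Genes whose mean TPM over the 8 libraries was 1 or more (17595, all 39 members included) were tested on log2(TPM + 1) with limma 3.58.1 (R 4.3.3). The model held line, siRNA and vector terms (2 residual degrees of freedom). The 4-line fit had 1 treatment term (3 residual degrees of freedom), p-values were adjusted by Benjamini-Hochberg at 0.05, and limma was tested on simulated data. Each p-value thus reflects disagreement between lines alone, since no culture was repeated. Whole-read numbers were recovered from value times exon length within 0.02 reads, and these served for counting intervals, not for a count test. Members and lists were chosen with earlier results of these data known, and the fold of 1.5 was chosen once values had been seen. All 8 values are given for the 3 highest and 3 lowest ratios of each line, for the highest and lowest member of each step by control level, and for BRCA1, BRCA2, FANCD2 and FANCI. Alternatives were another pseudocount, filter or scale, protein-coding genes only, leaving out a line, and a GC adjustment.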

Additional observations from a re-analysis of the deposited data

How the results depend on the processing

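Under each alternative tried limma called 0 members for the siRNA, vector, 4-line and approach-difference tests, leave-one-line-out fits included (0 to 0). Over all genes, a filter at a mean TPM of 5 called 77 for the siRNA, 7 for the vector and 7 for the difference, and protein-coding genes only called 64, 22 and 22, against 0 otherwise. Members with level differences between lines numbered 18 (46.2%, beside 61.0% of all genes), but 2 with no filter (5.1% beside 10.4%), 28 on the scale without mitochondrial genes (71.8% beside 53.8%), 30 with protein-coding genes only (76.9% beside 78.4%), and 0 to 0 when any 1 line was left out, where fewer residual degrees of freedom remain. The median log2 ratio of members in CAL-62 was -0.42, but 0.00 with median-ratio scaling, which turned its sign, and -0.03 without mitochondrial genes. In TPC-1 it was -0.11, but -0.22 with members of at least 5 TPM and -0.05 on the deposited columns and with median-ratio scaling. Subtracting the coding-gene median of the same GC bin, chosen after seeing the data, gave 0.32 in 8505C, -0.10 in CAL-62 and -0.08 in FTC-133. The causes were not tested. Of 156 member ratios per setting, median-ratio scaling shifted 24, the scale without mitochondrial genes 22, the deposited columns 2 and a pseudocount of 0.1 2 beyond their counting interval with no turn of a ratio whose interval excluded 1. In CAL-62 median-ratio scaling and the scale without mitochondrial genes turned such log2 ratios to 0.05 and 0.02 (NBN), 0.08 and 0.06 (PALB2), 0.19 and 0.17 (RAD52), 0.07 and 0.05 (FANCB), 0.22 and 0.19 (FANCL) and 0.21 and 0.19 (FANCD2), and the first turned DNA2 to 0.00. The tests are already paired by line through the line term, and with 1 library per group there was no replicate number to block on. Values under 100 reads, 53 of 312, include all 8 of RAD50 and of RAD54B, 5 of FANCB and 4 of FANCE.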
